A study of Mus musculus with 6 samples.

Results

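The 8 genes described here make up the core of MHC class I antigen presentation. They are the classical heavy chains H2-K1 and H2-D1, their partner B2m (β2-microglobulin), the peptide transporter subunits Tap1 and Tap2, the loading chaperone Tapbp (tapasin), the peptide-trimming aminopeptidase Erap1 and the transactivator Nlrc5. They were chosen by gene symbol from the 27482 symbols of the count table, and all 8 had a row and passed the low-count filter that left 14663 genes for testing. The material was labelled as heart of male mice, in a study of whether the secreted protein FNDC4 protects the heart after ischemia/reperfusion (I/R). The 3 AAV9-hFNDC4 libraries came from mice given an adeno-associated virus vector for FNDC4 overexpression, and the 3 AAV9-CTRL libraries from mice given the control vector. Both groups had I/R surgery, and hearts were collected 24 h later. The sources used here do not give strain, age, the promoter of the vector or whether hearts were pooled. The labels do not say that each library is a separate animal, and p-values then reflect only library-to-library spread, which may be technical. Fndc4 was not analysed here, so the group labels were not checked against it.

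Class I molecules show peptides from inside the cell to CD8 T cells. Proteasomes cut proteins into peptides, the Tap1/Tap2 transporter carries these into the endoplasmic reticulum, Erap1 shortens them, and tapasin with calreticulin and Pdia3 loads them onto a heavy chain paired with β2-microglobulin. Nlrc5 is the transactivator that binds class I promoters with the RFX and NF-Y factors. Interferons raise most of these genes, and heart muscle at rest is known for low class I levels.

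The libraries held 34419687 to 35149915 counts with AAV9-hFNDC4 and 32975817 to 36074046 with AAV9-CTRL, and no class I gene had under 650 counts in any library. Most defining transcripts of heart muscle were nearly absent, with Tnnt2 the main exception. Myh6, the adult cardiac myosin, averaged 0.245 CPM (counts scaled to library size) with AAV9-hFNDC4 and 0.31 CPM with AAV9-CTRL, and Nkx2-5 had 0 counts in all 6 libraries. The 8 heart muscle markers summed to 43 to 44.5 CPM per AAV9-hFNDC4 library and 56.1 to 57.9 CPM per AAV9-CTRL library, with 2 of the 8 at a mean of at least 1 CPM. These were Tnnt2 and Ttn. Tnnt2 made up most of the sums, at 38.13 CPM with AAV9-hFNDC4 and 51.72 CPM with AAV9-CTRL. It was called lower (log2 fold change -0.44), and the call was lost with the length correction. Ttn, at 4.62 CPM with AAV9-hFNDC4 and 3.902 CPM with AAV9-CTRL, did not pass. The 6 endothelial markers summed to 1.27 to 2.43 CPM per AAV9-hFNDC4 library and 2.42 to 3.89 CPM per AAV9-CTRL library. Only Pecam1 reached a mean of 1 CPM, at 1.214 CPM with AAV9-hFNDC4 and 2.239 CPM with AAV9-CTRL, and it did not pass. Emcn had 0 counts in all 6 libraries. The 5 general leukocyte markers summed to 10 to 13.1 CPM per AAV9-hFNDC4 library and 11.5 to 16.3 CPM per AAV9-CTRL library, with 2 of the 5 at a mean of at least 1 CPM. Of these, Coro1a was called lower at 8.275 CPM with AAV9-hFNDC4 and 12.26 CPM with AAV9-CTRL (7 of 16 alternatives), and Lcp1, at 2.482 CPM with AAV9-hFNDC4 and 1.061 CPM with AAV9-CTRL, did not pass. Ptprc had 10 counts over the AAV9-hFNDC4 libraries against 9 over the AAV9-CTRL libraries, and Laptm5 had 2 against 16. The 7 T and NK cell markers with a row summed to 0 to 0.299 CPM per AAV9-hFNDC4 library and 0.289 to 0.658 CPM per AAV9-CTRL library, with Cd3d at 0 counts throughout. The 6 fibroblast markers summed to 5680 to 6610 CPM per AAV9-hFNDC4 library and 5120 to 6590 CPM per AAV9-CTRL library, but they did not move together. Vim, the largest part of the sum, averaged 3260 CPM with AAV9-hFNDC4 and 3906 CPM with AAV9-CTRL and did not pass, and neither did Col1a1. Pdgfra, Col3a1 and Col1a2 were called higher, by 2.31-fold, 1.87-fold and 1.36-fold, the last lost with the length correction. Dcn was nearly absent, with 7 counts over the AAV9-hFNDC4 libraries against 2 over the AAV9-CTRL libraries. The part of these markers in the class I levels was not tested. The class I levels below are therefore not assigned to heart muscle or to any other cell type. In bulk RNA, fewer cells of a type and less RNA per cell cannot be told apart.

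The proximal promoters of the genes whose levels differed are shown first, because class I promoters carry a known set of regulatory boxes. Each window is a RefSeq sequence of build GRCm38.p6, from 250 bases before to 50 bases after the annotated start, and the reference strain may not be that of these mice. Capitals mark matches, on either strand, to 5 motifs. These are the interferon-response core TTTCACTT, a general interferon-response motif (GAAA, any 2 bases, GAAA), an NF-kB site (GGGGATT, any base, CCC), the CREB/ATF half-site TGACG and the NF-Y box CCAAT. The first 2 motifs can overlap, as they do in the Erap1 window, which is not shown.
Tap1, chr17:34187306-34187605, plus strand: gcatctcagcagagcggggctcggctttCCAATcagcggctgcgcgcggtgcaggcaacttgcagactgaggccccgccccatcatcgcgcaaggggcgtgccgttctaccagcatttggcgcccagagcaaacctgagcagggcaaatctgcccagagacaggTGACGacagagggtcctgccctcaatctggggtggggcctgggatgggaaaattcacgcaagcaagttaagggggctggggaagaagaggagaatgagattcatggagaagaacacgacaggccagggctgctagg
B2m, chr2:122147437-122147736, plus strand: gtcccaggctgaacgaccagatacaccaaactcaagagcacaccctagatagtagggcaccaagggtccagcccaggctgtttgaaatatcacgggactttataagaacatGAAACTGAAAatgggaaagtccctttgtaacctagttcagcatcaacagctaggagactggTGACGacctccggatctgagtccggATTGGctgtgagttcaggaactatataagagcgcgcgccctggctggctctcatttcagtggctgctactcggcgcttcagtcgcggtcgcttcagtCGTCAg
H2-K1, chr17:34000298-34000597, minus strand: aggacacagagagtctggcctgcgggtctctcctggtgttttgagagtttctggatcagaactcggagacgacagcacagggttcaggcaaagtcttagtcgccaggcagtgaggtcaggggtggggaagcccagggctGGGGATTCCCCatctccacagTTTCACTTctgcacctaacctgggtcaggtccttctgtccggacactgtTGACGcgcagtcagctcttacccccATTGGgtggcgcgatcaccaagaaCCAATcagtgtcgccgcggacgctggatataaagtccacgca
H2-D1, chr17:35262844-35263143, plus strand: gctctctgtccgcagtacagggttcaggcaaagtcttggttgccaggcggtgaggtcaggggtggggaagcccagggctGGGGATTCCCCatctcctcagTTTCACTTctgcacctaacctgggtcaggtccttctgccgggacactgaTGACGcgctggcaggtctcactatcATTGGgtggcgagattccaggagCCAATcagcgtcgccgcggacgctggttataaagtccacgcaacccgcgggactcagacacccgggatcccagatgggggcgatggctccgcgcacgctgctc
H2-Q4, a class Ib heavy chain, chr17:35379367-35379666, plus strand: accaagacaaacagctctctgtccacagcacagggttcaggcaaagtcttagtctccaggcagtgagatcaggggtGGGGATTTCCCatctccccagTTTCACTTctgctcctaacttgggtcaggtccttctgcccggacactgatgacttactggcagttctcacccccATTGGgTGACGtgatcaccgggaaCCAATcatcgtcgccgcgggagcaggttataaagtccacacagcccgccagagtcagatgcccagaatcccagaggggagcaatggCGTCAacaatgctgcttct

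The 3 heavy chain windows were alike, with 89.5% identity between H2-K1 and H2-D1 over 239 aligned bases, 86.5% between H2-K1 and H2-Q4 over 237, and 83.1% between H2-D1 and H2-Q4 over 284. All 3 held the NF-kB site, as GGGGATTCCCC in H2-K1 and H2-D1 and GGGGATTTCCC in H2-Q4, which 0.0761% of 32851 promoter windows hold, and the TTTCACTT core, which 1.6% hold. Upstream of the NF-Y box, H2-K1 and H2-D1 had a TGACG half-site. In the H2-Q4 window a TGACG match lay just downstream of that box instead. The B2m window held the general interferon-response motif (3.44% of windows), with TGACG and CCAAT matches closer to the start. The Tap1 window held TGACG (20.8% of windows) and CCAAT (37.4% of windows) and none of the other 3 motifs. These matches describe the letters only and are not evidence of binding.

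The first question was whether class I presentation genes differ after I/R when FNDC4 is overexpressed. Tap1 was higher in the AAV9-hFNDC4 libraries by 1.39-fold, while H2-K1, B2m and H2-D1 were lower, at 0.75-fold, 0.776-fold and 0.783-fold of the AAV9-CTRL level. The 3 lower calls were lost when a trend with exon length was removed, and B2m then changed sign. The other 4 genes did not pass the test. Thus 1 of 8 was called higher, against 22.1% of all genes tested, and 3 of 8 lower, against 25.0% (edgeR quasi-likelihood test, Benjamini-Hochberg adjusted p under 0.05). Together 4 of 8 were called, against 47.1% of all genes tested, and the groups did not overlap for these same 4, against 56.6% of all genes tested (27.1% higher and 29.5% lower). The share called was thus close to that of the whole table. The median log2 fold change of the 8 genes was -0.04, against 0.01 over all genes tested.

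**Figure D1:**
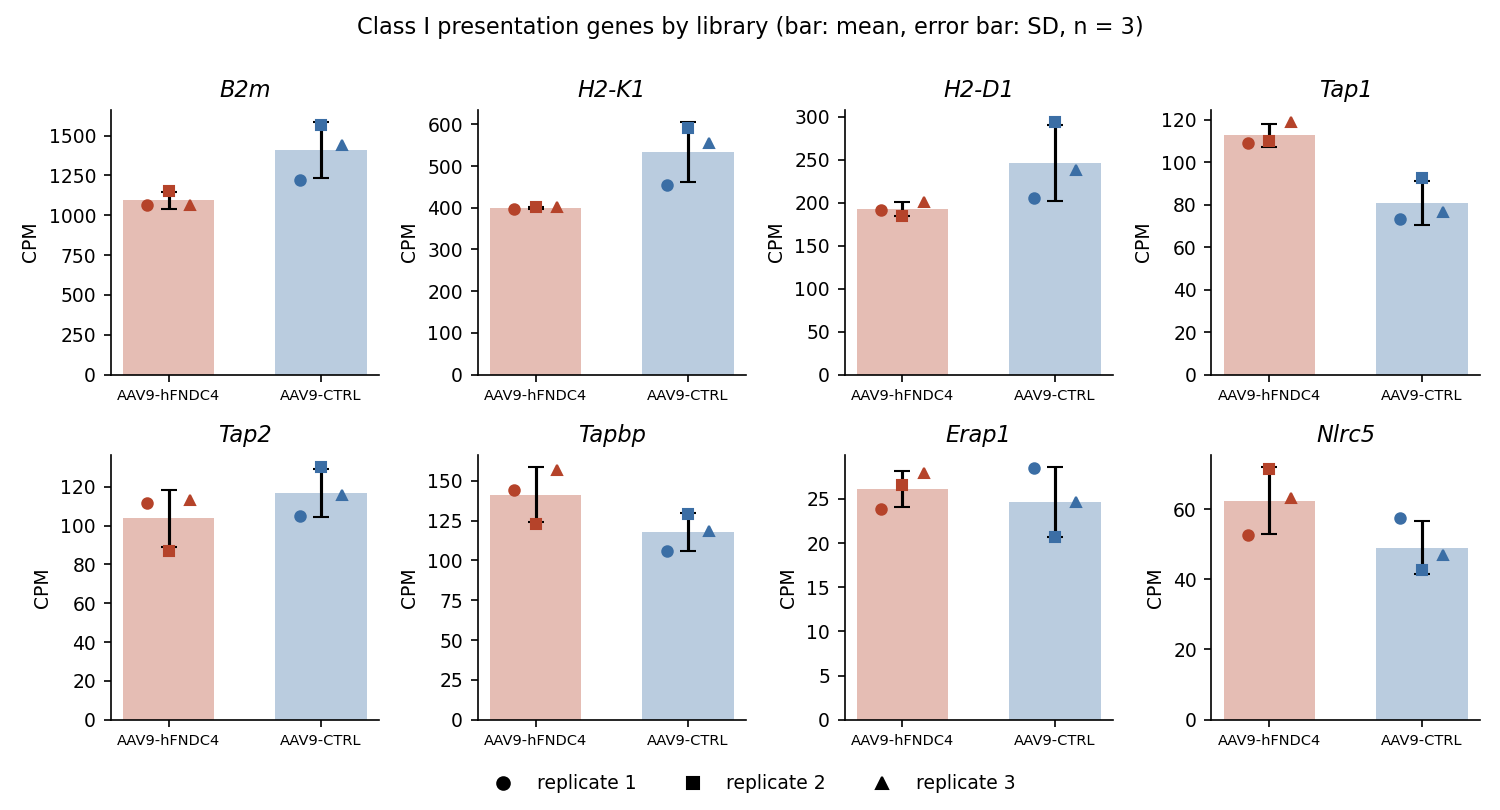
Level of each gene in CPM (y axis, from 0) in each library, with AAV9-hFNDC4 left and AAV9-CTRL right in each panel, and bars for the mean with SD over 3 libraries. All 3 AAV9-hFNDC4 libraries lie above every AAV9-CTRL library for Tap1 and below every one for B2m, H2-K1 and H2-D1, while Tap2, Tapbp, Erap1 and Nlrc5 overlap.

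H2-K1 (chromosome 17, 33996017 to 34000347, minus strand) encodes the K heavy chain, which holds the peptide. It stood at 397.5, 401.2 and 401.8 CPM in AAV9-hFNDC4 replicates 1, 2 and 3, against 454.3, 592.2 and 554.8 CPM in AAV9-CTRL replicates 1, 2 and 3. The AAV9-hFNDC4 libraries were nearly level with each other and all below the lowest AAV9-CTRL library. The means were 400.2 ± 2.35 CPM with AAV9-hFNDC4 and 533.8 ± 71.3 CPM with AAV9-CTRL (SD, n = 3 each), a log2 fold change of -0.42 (standard error 0.11; Benjamini-Hochberg adjusted p = 0.0109, edgeR quasi-likelihood test). Without AAV9-CTRL replicate 3 the log2 fold change was -0.39 and missed the threshold (Benjamini-Hochberg adjusted p = 0.0514, edgeR quasi-likelihood test, range 0.00203 to 0.407 over 16 alternatives).

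H2-D1 (chromosome 17, 35262730 to 35267499, plus strand) encodes the D heavy chain. Its level was 191.8, 184.9 and 201 CPM in AAV9-hFNDC4 replicates 1 to 3, against 205.8, 293.4 and 238.4 CPM in AAV9-CTRL replicates 1 to 3. The groups did not overlap, although AAV9-hFNDC4 replicate 3 and AAV9-CTRL replicate 1 lay close together. The log2 fold change was -0.35 (standard error 0.13; Benjamini-Hochberg adjusted p = 0.04, edgeR quasi-likelihood test). The call was lost in 5 of the 6 fits that each left out 1 library, the exception being the fit without AAV9-CTRL replicate 1, and the log2 fold change was -0.21 without AAV9-CTRL replicate 2. Heavy chain genes share sequence, and the treatment of reads matching several genes is not stated. Of all 50-base stretches in its transcripts, 12.8% of H2-D1 and 9.63% of H2-K1 also occur in transcripts of another gene, falling to 3.59% and 0.957% for 100-base stretches, so their split is uncertain to that extent.

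B2m (chromosome 2, 122147686 to 122153083, plus strand) encodes the light chain common to all class I molecules, and none of its 50-base stretches occurs in another gene. It was the most abundant of the 8, at 1066, 1151 and 1061 CPM in AAV9-hFNDC4 replicates 1 to 3, against 1219, 1565 and 1440 CPM in AAV9-CTRL replicates 1 to 3. Again AAV9-CTRL replicate 1 was the control library nearest to the other group. The log2 fold change was -0.37 (standard error 0.12; Benjamini-Hochberg adjusted p = 0.0225, edgeR quasi-likelihood test). It missed the threshold without AAV9-hFNDC4 replicate 1 or 3 or AAV9-CTRL replicate 2 or 3, with log2 fold changes of -0.35 to -0.28 in those fits. Upper-quartile scaling also ended the call (-0.31), and the length correction turned the direction (0.08; Benjamini-Hochberg adjusted p = 0.458, edgeR quasi-likelihood test, range 0.00324 to 0.559 over 16 alternatives).

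Within a library, the raw counts of the light chain and the classical heavy chains kept a similar proportion. The count of B2m over the summed counts of H2-K1 and H2-D1 was 1.81, 1.96 and 1.76 in AAV9-hFNDC4 replicates 1 to 3, against 1.85, 1.77 and 1.82 in AAV9-CTRL replicates 1 to 3. The difference of 0.03 on the log2 scale was within the spread of the libraries (two-sided exact permutation test, p = 0.9, where 0.1 is the smallest p that 3 against 3 allows). This ratio was not corrected for exon length. With the length trend removed, the log2 fold change was 0.08 for B2m, against -0.12 for H2-K1 and -0.16 for H2-D1. H2-D1 over H2-K1, a ratio chosen after its values were seen and so not tested, was 0.481 ± 0.0197 with AAV9-hFNDC4 and 0.459 ± 0.0333 with AAV9-CTRL.

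Tap1 (chromosome 17, 34187553 to 34197225, plus strand) encodes the first subunit of the peptide transporter. It stood at 109, 110 and 118.7 CPM in AAV9-hFNDC4 replicates 1 to 3, against 73.3, 92.56 and 76.47 CPM in AAV9-CTRL replicates 1 to 3. Every AAV9-hFNDC4 library was above every AAV9-CTRL library. The means were 112.6 ± 5.36 CPM with AAV9-hFNDC4 and 80.78 ± 10.3 CPM with AAV9-CTRL (SD, n = 3 each), a log2 fold change of 0.48 (standard error 0.11; Benjamini-Hochberg adjusted p = 0.005, edgeR quasi-likelihood test). Tap1 was called higher in all 16 alternative fits, with log2 fold changes of 0.44 to 0.64.

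Tap2 (chromosome 17, 34203527 to 34216321, plus strand), the second transporter subunit, did not pass the test. It was at 111.5, 86.89 and 113 CPM in AAV9-hFNDC4 replicates 1 to 3, against 105, 129.9 and 115.5 CPM in AAV9-CTRL replicates 1 to 3. The groups overlapped, with AAV9-hFNDC4 replicate 2 the lowest of the 6 libraries and AAV9-CTRL replicate 2 the highest. The log2 fold change of -0.17 did not pass (95% interval -0.45 to 0.11, Benjamini-Hochberg adjusted p = 0.294, edgeR quasi-likelihood test). Since functional transporters need both subunits, the ratio of Tap1 to Tap2 counts was also taken. It was 0.978, 1.27 and 1.05 in AAV9-hFNDC4 replicates 1 to 3, against 0.698, 0.712 and 0.662 in AAV9-CTRL replicates 1 to 3. All 3 AAV9-hFNDC4 ratios were above all 3 AAV9-CTRL ratios, a 1.58-fold difference (two-sided exact permutation test, p = 0.1, the smallest that 3 against 3 allows). Tap1, a part of this ratio, already separated the groups alone, so the ratio is not separate support for its difference. In the annotation, 15.8% of Tap2 exon bases lie under exons of a gene on the other strand, and 7.2% of Tap1 exon bases under those of Psmb9.

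**Figure D2:**
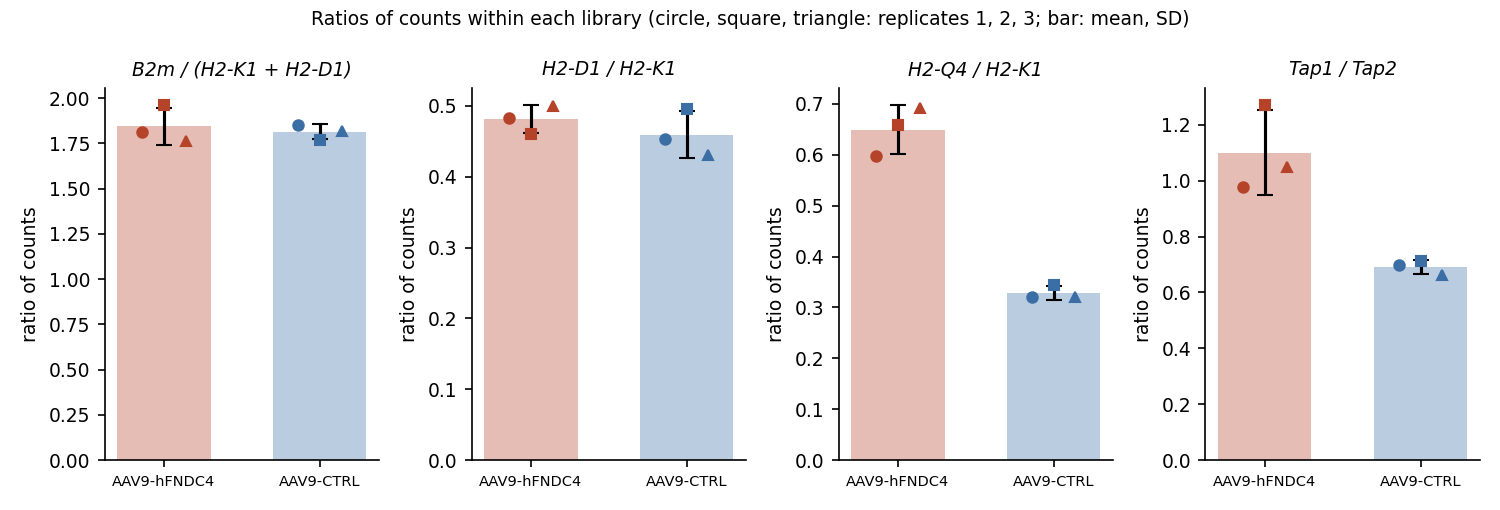
Ratios of raw counts within each library (y axes, from 0), AAV9-hFNDC4 left and AAV9-CTRL right in each panel, with bars for the mean and SD of 3 libraries. The ratios of B2m to H2-K1 plus H2-D1 and of H2-D1 to H2-K1 overlap between groups, while H2-Q4 over H2-K1 (mean 0.649 with AAV9-hFNDC4 and 0.328 with AAV9-CTRL) and Tap1 over Tap2 (mean 1.1 with AAV9-hFNDC4 and 0.691 with AAV9-CTRL) are higher in every AAV9-hFNDC4 library.

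Tapbp (chromosome 17, 33915899 to 33929292, plus strand), which bridges the transporter and the empty heavy chain, was at 144.4, 122.9 and 156.7 CPM in AAV9-hFNDC4 replicates 1 to 3, against 105.7, 129.3 and 118.6 CPM in AAV9-CTRL replicates 1 to 3. Only AAV9-hFNDC4 replicate 2 lay inside the range of the AAV9-CTRL libraries. The log2 fold change of 0.26 did not pass (standard error 0.12; Benjamini-Hochberg adjusted p = 0.0932, edgeR quasi-likelihood test). It passed without AAV9-hFNDC4 replicate 2 (0.36) or without AAV9-CTRL replicate 2 (0.33). Of the Tapbp exon bases, 23.5% lie under exons of a gene on the other strand, whose reads could not be told apart here without a stated strand setting.

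Erap1 (chromosome 13, 74639568 to 74693201, plus strand) trims peptides in the endoplasmic reticulum. Its level was 23.9, 26.6 and 27.92 CPM in AAV9-hFNDC4 replicates 1 to 3, against 28.55, 20.72 and 24.68 CPM in AAV9-CTRL replicates 1 to 3. The AAV9-hFNDC4 libraries lay within the range of the AAV9-CTRL libraries, and the log2 fold change of 0.08 had a 95% interval of -0.22 to 0.39 (Benjamini-Hochberg adjusted p = 0.647, edgeR quasi-likelihood test). Exons of Cast on the other strand cover 14.8% of its exon bases.

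Nlrc5 (chromosome 8, 94434356 to 94527272, plus strand), the class I transactivator, was at 52.56, 71.41 and 63.3 CPM in AAV9-hFNDC4 replicates 1 to 3, against 57.51, 42.68 and 47 CPM in AAV9-CTRL replicates 1 to 3. Replicate 1 of AAV9-CTRL was above replicate 1 of AAV9-hFNDC4, so the groups overlapped. The log2 fold change of 0.35 missed the threshold (SE 0.14, 95% interval 0.03 to 0.66, Benjamini-Hochberg adjusted p = 0.0673, edgeR quasi-likelihood test). It passed without AAV9-CTRL replicate 1 (0.5) or without AAV9-hFNDC4 replicate 1 (0.46). Nlrc5 was thus not called in either direction, while its targets H2-K1, H2-D1 and B2m were called lower and Tap1 higher. This contrast holds for the uncorrected fit. Once the length trend was removed, Nlrc5 came to -0.00172, and H2-K1 (-0.12), H2-D1 (-0.16) and B2m (0.08) were not called, while Tap1 kept its call.

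Among the AAV9-CTRL libraries, replicate 2 had the highest level of 6 of the 8 genes and the lowest of the other 2, Erap1 and Nlrc5. Replicate 1 was the reverse, with the lowest level of those 6 genes and the highest of Erap1 and Nlrc5. The AAV9-hFNDC4 libraries showed no single order of this kind, with replicate 3 highest for 6 genes and replicate 1 lowest for 4.

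Genes with a long exon sequence had higher log2 fold changes than those with a short one in this comparison, and the class I genes span that range. Length here means the merged exon bases of all annotated transcripts of a gene, which can exceed the length of any single transcript. The median log2 fold change of all genes tested with a length was -0.50 in the shortest 10% and 0.46 in the longest 10%, and was higher at each step between. B2m, with 0.86 kb of exon, belongs to that shortest decile, H2-K1 (1.66 kb) to decile 2 with a median of -0.34, and H2-D1 (2.1 kb) to decile 3 with a median of -0.19. Tap1 (2.95 kb) and Tapbp (2.9 kb) belong to decile 5 with a median of -0.05, Tap2 (3.44 kb) to decile 6 with a median of 0.00, Erap1 (5.64 kb) to decile 9 with 0.27 and Nlrc5 (8.12 kb) to decile 10. When a smooth length trend was removed from each library, the log2 fold change of H2-K1 was -0.12 (SE 0.09), of H2-D1 -0.16 (SE 0.11) and of B2m 0.08 (SE 0.08), and none was called. Nlrc5 came to -0.00 (SE 0.12). Tap1 kept its call at 0.56 (standard error 0.10; Benjamini-Hochberg adjusted p = 0.0016, edgeR quasi-likelihood test), and Tapbp was called higher at 0.35 (SE 0.11, adjusted p = 0.0263 from the same test). After the correction 42.6% of all genes tested were called.

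**Figure D3:**
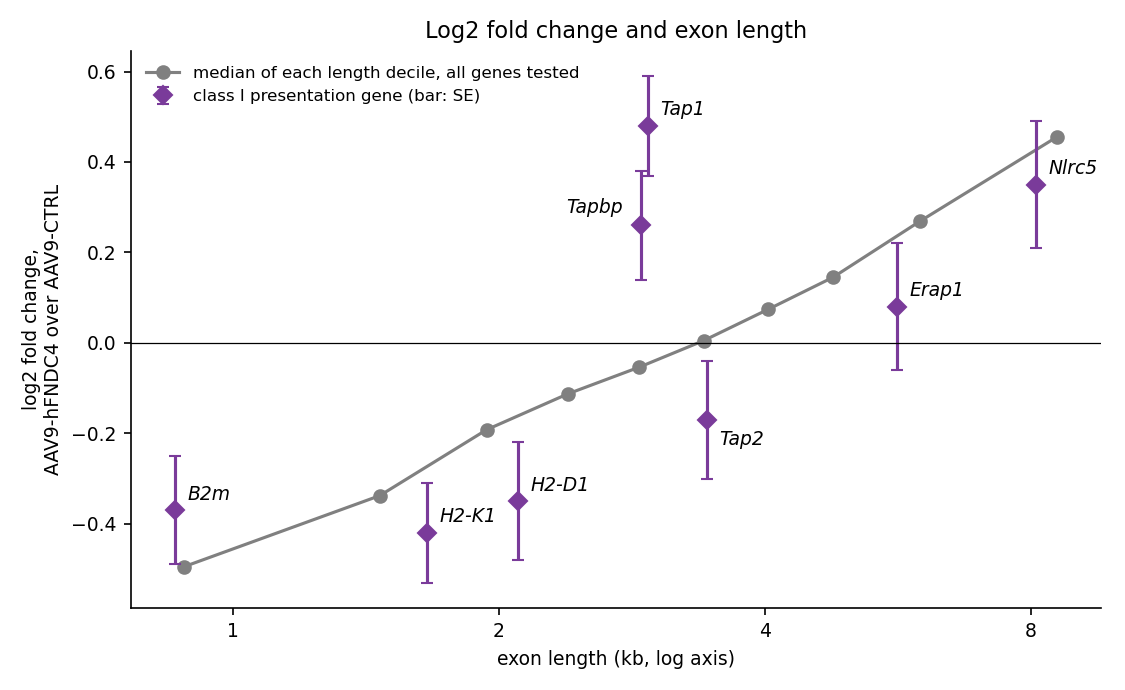
Log2 fold change of AAV9-hFNDC4 over AAV9-CTRL (y axis) against exon length in kb (log x axis), with grey points for the median of each length decile of all genes tested and diamonds with SE bars for the 8 class I genes. Tap1 (0.48) and Tapbp (0.26) lie above the median of their decile (-0.05), and H2-D1 (-0.35) below that of its own (-0.19).

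**Figure D4:**
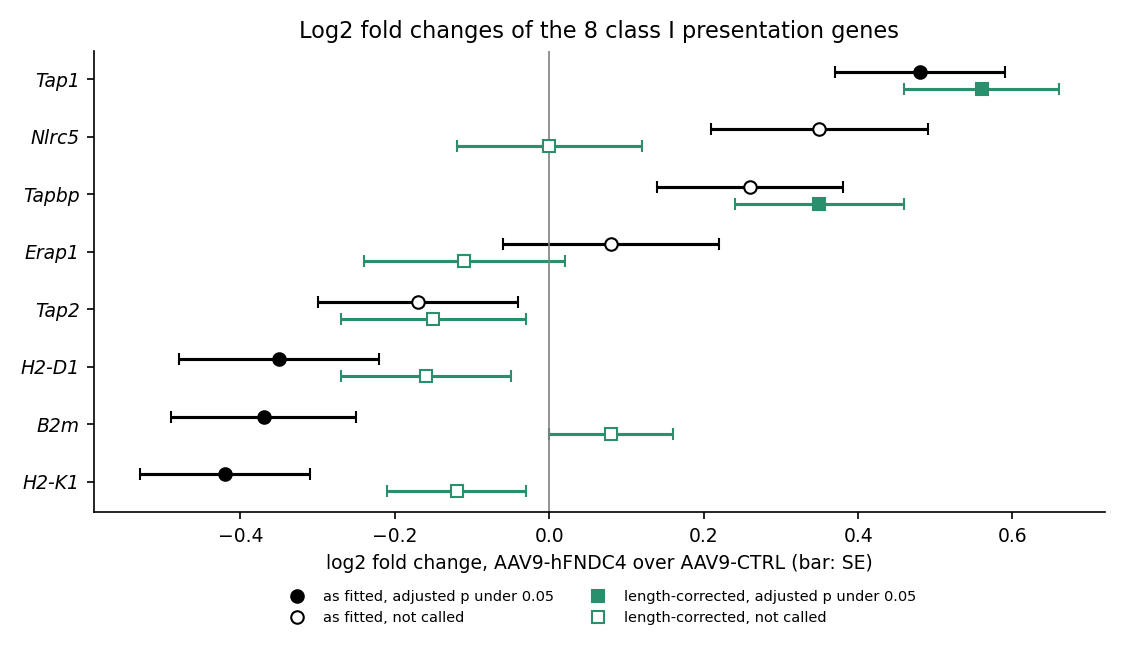
Log2 fold changes (x axis) of the 8 genes as fitted (circles) and after removal of the length trend (squares), with SE bars and filled symbols for adjusted p under 0.05. Tap1 is filled in both, the 3 lower genes H2-D1, B2m and H2-K1 only as fitted, and Tapbp only after the correction.

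Levels per kb of exon allow a comparison between genes. With AAV9-hFNDC4, the order was B2m at 1270 ± 58.8 CPM per kb, H2-K1 at 242 ± 1.42, H2-D1 at 91.6 ± 3.84, Tapbp at 48.8 ± 5.9, Tap1 at 38.1 ± 1.82, Tap2 at 30.1 ± 4.25, Nlrc5 at 7.69 ± 1.16 and Erap1 at 4.63 ± 0.362 CPM per kb. No neighbours in that order overlapped within 1 SD. With AAV9-CTRL, B2m was at 1640 ± 204 CPM per kb, H2-K1 at 323 ± 43.1, H2-D1 at 117 ± 21.1, Tapbp at 40.7 ± 4.07, Tap2 at 33.9 ± 3.64, Tap1 at 27.4 ± 3.5, Nlrc5 at 6.04 ± 0.939 and Erap1 at 4.37 ± 0.694 CPM per kb. There Tapbp overlapped Tap2 and Tap2 overlapped Tap1 within 1 SD. The place of the transporter subunits in the order was the one change between groups.

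The class Ib and class I-like genes, relatives of the classical heavy chains with more restricted roles, went in both directions. Of 15 tested, 3 were higher, 3 lower and 9 not called, 40.0% called against 47.1% of all genes tested, with a median log2 fold change of 0.20. With the length correction 6 were higher and 1 lower, with a median of 0.40. H2-Q4 was by far the most abundant of the H2-Q genes, at 237.3, 264.1 and 278.2 CPM in AAV9-hFNDC4 replicates 1 to 3, against 146, 203.4 and 177.6 CPM in AAV9-CTRL replicates 1 to 3. All AAV9-hFNDC4 libraries were above all AAV9-CTRL libraries, with a log2 fold change of 0.56 (standard error 0.13; Benjamini-Hochberg adjusted p = 0.00379, edgeR quasi-likelihood test) that was called in all 16 alternative fits. Its ratio to H2-K1, also chosen after its values were seen, was 0.597, 0.658 and 0.692 in AAV9-hFNDC4 replicates 1 to 3, against 0.321, 0.344 and 0.32 in AAV9-CTRL replicates 1 to 3. Of its 50-base stretches, 21.8% occur in another gene, mostly H2-Q6, which had 34 counts over the AAV9-hFNDC4 libraries and 19 over the AAV9-CTRL libraries, and 21% of its exon bases lie under a gene on the other strand. With all 14 listed H2 heavy chain genes in the sum, B2m over heavy chains was 1.14 ± 0.0741 with AAV9-hFNDC4 and 1.33 ± 0.0522 with AAV9-CTRL.

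Of the other class I-like genes, Mr1, which presents vitamin B metabolites, was at 19.27 ± 4.32 CPM with AAV9-hFNDC4 and 9.332 ± 1.72 CPM with AAV9-CTRL, a called log2 fold change of 1.05. H2-T24 was also called higher, at 2.586 ± 0.589 CPM with AAV9-hFNDC4 and 0.8079 ± 0.569 CPM with AAV9-CTRL. H2-Q2 was lower, with 6 counts over the AAV9-hFNDC4 libraries against 85 over the AAV9-CTRL libraries. The remaining lower genes were scarce, with H2-Q10 at 88 counts over the AAV9-hFNDC4 libraries against 157 over the AAV9-CTRL libraries and H2-T3 at 53 counts with AAV9-hFNDC4 against 113 with AAV9-CTRL. Their calls held in 5 of 16 and 3 of 15 alternatives, and both were lost with the length correction. H2-T23, the mouse Qa-1 chain, had 15.52 ± 2.86 CPM with AAV9-hFNDC4 and 11.06 ± 5.87 CPM with AAV9-CTRL and did not pass. Its log2 fold change of 0.49 was 0.24 to 0.99 when 1 library was left out, and it was called higher in 4 of 16 alternatives, among them the length correction (0.85).

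Among the immunoproteasome and PA28 genes, which interferon induces and which make peptides for class I, 4 of 6 tested were lower and 0 higher, against 25.0% of all genes called lower, with a median log2 fold change of -0.61. With the length correction 2 of 6 were lower, with a median of -0.20. These were Psmb10 (-1.17, SE 0.16), the assembly factor Pomp (-1.16, SE 0.10), Psme2 (-0.67, SE 0.13) and Psme1 (-0.56, SE 0.16), of which Psme1 and Psme2 lost their calls with the length correction. The catalytic subunits Psmb5, Psmb6 and Psmb7 of the standard proteasome were lower by log2 fold changes of -1.20, -1.24 and -1.22, and Psme3 by -0.53, so all 4 listed there were lower. With the length correction 3 of these 4 were lower, and the call of Psme3 held in 10 of 16 alternatives. Exons of Nek6 on the other strand cover 34.9% of the Psmb7 exon bases. Psmb8 (-0.31) and Psmb9 (-0.09) did not pass. Psmb9 starts 226 bases from Tap1 on the opposite strand and stood at 27.11, 22.78 and 28.95 CPM in AAV9-hFNDC4 replicates 1 to 3, against 22.25, 35.6 and 26.3 CPM in AAV9-CTRL replicates 1 to 3. Those groups overlapped, in contrast to Tap1, and the count of Tap1 over Psmb9, chosen after its values were seen, was 4.32 ± 0.446 with AAV9-hFNDC4 and 2.93 ± 0.348 with AAV9-CTRL.

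Of 7 other peptide-trimming enzymes tested, 1 was higher and 3 lower, 57.1% called against 47.1% of all genes tested. Lnpep, an aminopeptidase of endosomes, was higher at 107.6 ± 12.3 CPM with AAV9-hFNDC4 and 52.05 ± 14.7 CPM with AAV9-CTRL. The cytosolic peptidases Thop1 (log2 fold change -0.64), Lap3 (-0.50) and Tpp2 (-0.32) were lower, and the call of Tpp2 held in 7 of 16 alternatives.

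In the endoplasmic reticulum, 4 of 8 loading partners and translocation genes were lower, against 25.0% of all genes tested, and 0 higher, against 22.1%. In either direction 4 of 8 were thus called, close to the 47.1% of all genes tested. Their median log2 fold change was -0.34. Calr, the calreticulin of the loading complex, stood at 1514 ± 88.4 CPM with AAV9-hFNDC4 and 2299 ± 363 CPM with AAV9-CTRL, a log2 fold change of -0.60 (SE 0.13). Pdia3, the oxidoreductase bound to tapasin, was lower by -0.68 (SE 0.13), and the translocon genes Sec61b and Sec61a1 by -1.17 and -0.51. Calr, Pdia3 and Sec61b were called lower in all 16 alternatives, the length correction included. Canx, which folds new heavy chains, had -0.10 and did not pass. Of 7 genes that turn over proteins of this compartment, 3 were lower, namely Vcp (-1.01), Syvn1 (-0.87) and Ube2j1 (-0.40), and Rnf139, a ubiquitin ligase, was higher (0.49). That was 57.1% called, against 47.1% of all genes tested.

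Transcription factors of class I genes went both ways, with 7 of 16 tested higher, against 22.1% of all genes tested, and 3 lower, against 25.0%. Rfx5, the DNA-binding subunit of the RFX complex with which Nlrc5 acts, stood at 19.47 ± 2.01 CPM with AAV9-hFNDC4 and 9.618 ± 1.48 CPM with AAV9-CTRL, a log2 fold change of 1.02 (standard error 0.16; Benjamini-Hochberg adjusted p = 0.000375, edgeR quasi-likelihood test). Exons of a gene on the other strand cover 30.3% of its exon bases. Its partner Rfxap was lower (-0.58, SE 0.12), as was the NF-Y subunit Nfyc (-0.81, SE 0.12), while Irf2 was higher (0.54, SE 0.11). Irf1, an interferon-induced activator of class I genes named here after its values were seen, had -0.05 (SE 0.13) and did not pass. Of 8 interferon receptor and JAK genes tested, 5 were higher, against 22.1% of all genes tested, and 0 lower, with a median log2 fold change of 0.35. These were Jak2 (0.76), Ifngr1 (0.43), Tyk2 (0.40), Ifngr2 (0.37) and Ifnar1 (0.34), and Tyk2 lost its call with the length correction. Only the call of Jak2 held in all 16 alternatives. Those of Ifngr1, Ifngr2, Ifnar1 and Tyk2 held in 15, 12, 11 and 9 of 16. The interferon genes were at the limit of detection, with 0 counts of Ifng over the AAV9-hFNDC4 libraries against 1 over the AAV9-CTRL libraries and 0 counts of Ifnb1 in all 6.

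Class II presentation genes, the markers of professional presenting cells, were mostly at low levels. H2-Aa and H2-Ab1, the chains of the I-A molecule, had 0 counts in all 6 libraries, which allows up to 3 counts in each library. Ciita, the class II transactivator, averaged 0.693 CPM with AAV9-hFNDC4 and 0.608 CPM with AAV9-CTRL. In contrast, the invariant chain Cd74 was abundant, at 227 ± 37 CPM with AAV9-hFNDC4 and 179 ± 18.2 CPM with AAV9-CTRL, a log2 fold change of 0.34 (SE 0.13) whose call held in 10 of 16 alternatives. Of 7 class II genes tested, Cd74 was higher, H2-DMb2 (-0.55) and Ctss, at 13 counts over the AAV9-hFNDC4 libraries against 61 over the AAV9-CTRL libraries, were lower, and 4 did not pass. The share called was 42.9%, against 47.1% of all genes tested. The call of H2-DMb2 held in 5 of 16 alternatives and was lost with the length correction (-0.29). The 7 monocyte and macrophage markers summed to 18.6 to 21.3 CPM per AAV9-hFNDC4 library and 36.2 to 44.1 CPM per AAV9-CTRL library, with 2 of 7 at a mean of at least 1 CPM. Of 5 tested, Cd68 and Itgam were called lower, and Lyz2 (-0.11), Fcgr1 (-0.15) and Csf1r (-0.82) did not pass. Cd68 averaged 11.71 CPM with AAV9-hFNDC4 and 27.92 CPM with AAV9-CTRL. Itgam had 0 counts over the AAV9-hFNDC4 libraries against 168 over the AAV9-CTRL libraries, and Adgre1 had 1 against 5. Exons of other genes, mainly Gm49368 on the same strand, cover 70.0% of the Itgam exon bases, and how such reads were counted is not stated. Several markers of other immune cells also had fewer counts over the AAV9-hFNDC4 libraries, with Itgax at 12 against 134 over the AAV9-CTRL libraries, Cd79a at 8 against 69, Cd79b at 0 against 56 and Cd3e at 2 against 36. Others went the opposite way. Zbtb46, a dendritic cell marker, had 140 counts over the AAV9-hFNDC4 libraries against 76 over the AAV9-CTRL libraries and did not pass. Cd8b1 had 9 against 3 and Nkg7 had 1 against 0. The part of these markers in the class I levels was not tested. Of the NKG2D ligands, stress-induced relatives of class I, Raet1d and Raet1e were lower (-0.34 and -0.39) and Ulbp1 did not pass, and both calls were lost with the length correction. Thus 2 of 3 tested were lower as fitted, against 25.0% of all genes tested. Raet1e exons cover 25.2% of the Raet1d exon bases.

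**Figure D5:**
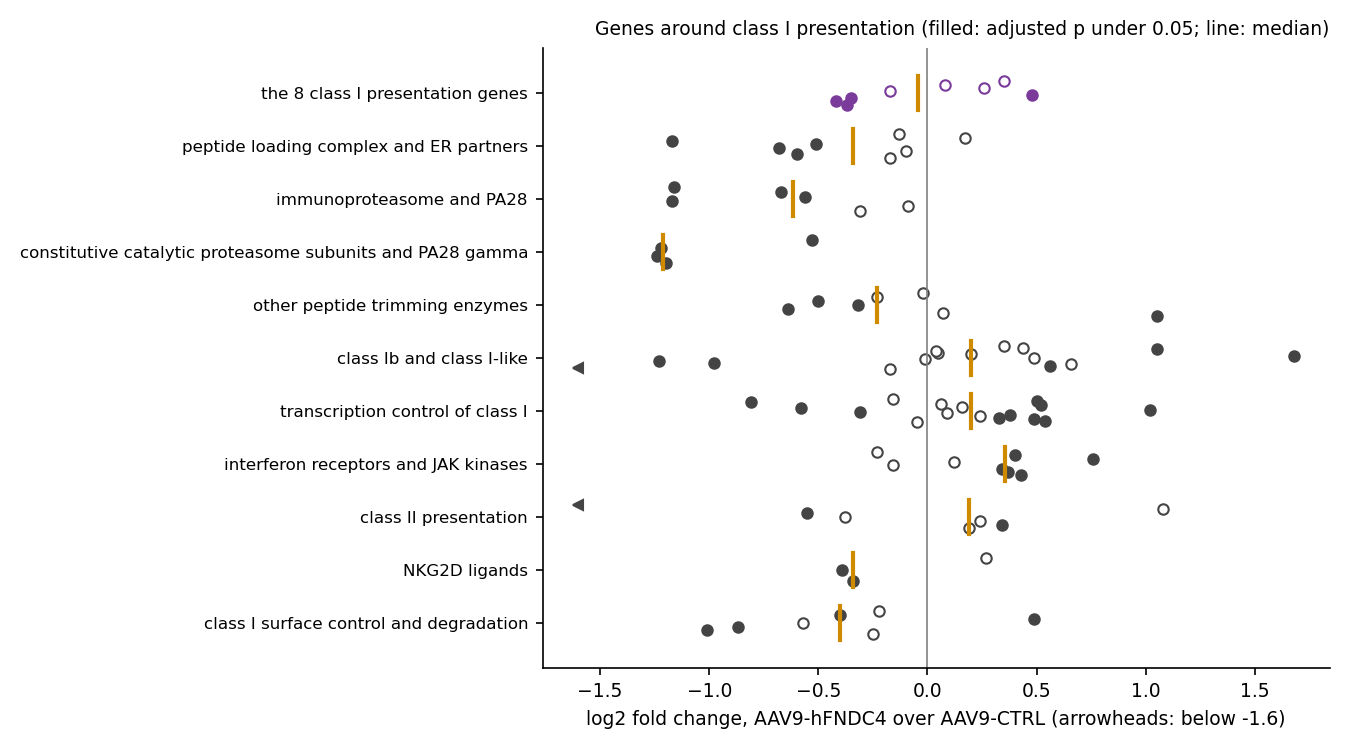
Log2 fold change of AAV9-hFNDC4 over AAV9-CTRL (x axis) for the 8 class I genes (top row) and each tested gene of 10 lists around the pathway, with filled points for adjusted p under 0.05 and a line at each median. The proteasome rows lie left of 0, the interferon receptor row mostly right of it, and the 8 class I genes on both sides.

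Taking the 81 tested genes of these 10 lists as one group, 18 were higher, against 22.1% of all genes tested, and 28 lower, against 25.0%. This was 56.8% called, against 47.1% of all genes tested, with a median log2 fold change of -0.10. With the length correction 17 were higher and 20 lower, with a median of -0.01. The genes whose level followed H2-K1 most closely over the 6 libraries, out of 11308 other genes that averaged 1 CPM or more (predicted genes left out), were Alkbh2, a DNA repair dioxygenase (Pearson r of log2 CPM 0.9995), the interferon-induced membrane protein Ifitm3 (0.9984) and the deubiquitinase Otulin (0.9982). The 6 libraries form 2 groups, so these values include the group difference. They were also picked as the highest of 11308 correlations over only 6 libraries. Values this high can come from that choice alone, and shared control with H2-K1 was not tested. Ifitm3 was itself called lower, at 230.5 ± 4.11 CPM with AAV9-hFNDC4 and 313.3 ± 44.1 CPM with AAV9-CTRL. Alkbh2 (log2 fold change -0.26) and Otulin (-0.27) did not pass.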

How the data were processed

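Per the labels' protocols, total RNA came from TRIzol extraction, and the VAHTS Universal V6 kit gave the libraries. The authors deposited raw read counts per gene symbol, 1 column per library. The tools fastp, HISAT2, HTSeq, R 3.2.0 and DESeq2 and the build GRCm38 (mm10) are named per the submitters' processing notes. The sources used here do not give the strand setting, the annotation release or how reads matching several genes were treated.

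Counts were tested in R 4.3.3 with edgeR 4.0.16 (filterByExpr, TMM, robust quasi-likelihood F test), with Benjamini-Hochberg adjustment over 14663 genes and a threshold of 0.05. The SE is the size of the log2 fold change divided by the square root of F. CPM used TMM library sizes, and values after ± are SD over 3 libraries. Libraries of 1 group differed by more than sampling noise. Positions, exon lengths and overlaps are from GENCODE vM21 (GRCm38), which gave a length for 91.3% of tested genes. The length and GC corrections were loess trends (span 0.4) of each library against the mean, entered as offsets. The other alternatives were RLE and upper-quartile scaling, no low-count filter, limma-voom (limma 3.58.1), DESeq2 1.42.0, a minimum of 1 CPM in 3 libraries, the replicate number as a block, and leaving out each library.

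The members, lists and rules were chosen with earlier results of these data known. Named were all 8 members, and of each list up to 4 genes with the smallest p, or every called gene where 5 or fewer were called. Lists are described by counts, with no set test. H2-T10, Cd1d2 and H60c of the lists, and a few marker genes, were not analysed here. The listed symbol Trc8 is another name of Rnf139, which was tested under that name.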

Additional observations from a re-analysis of the deposited data

How the results depend on the processing

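Tap1 was called higher in all 16 alternatives, and the log2 difference of the Tap1 to Tap2 ratio was 0.554 to 0.74 when any library was left out. Leaving out 1 library at a time gave log2 fold changes of -0.43 to -0.28 for B2m (called in 2 of 6 fits), -0.49 to -0.33 for H2-K1 (5 of 6), -0.43 to -0.21 for H2-D1 (1 of 6), 0.24 to 0.50 for Nlrc5 (2 of 6), 0.19 to 0.36 for Tapbp (2 of 6), 0.44 to 0.59 for Tap1 (6 of 6), -0.23 to -0.05 for Tap2 (0 of 6) and -0.03 to 0.23 for Erap1 (0 of 6). In those fits 1 to 2 members were called higher and 0 to 3 lower, and 17 to 30 other listed pathway genes lower.

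With the length correction, 2 members were called higher and 0 lower, with B2m reversed at 0.08, Erap1 reversed at -0.11, Nlrc5 at -0.00172, H2-K1 at -0.12, H2-D1 at -0.16 and Tapbp at 0.35. The trend removed is a part of these fold changes by construction, and what gives rise to it was not tested. With the GC correction, 3 members were called higher and 2 lower, with H2-D1 at -0.18, Tap2 reversed at 0.00698, Tapbp at 0.44, Erap1 reversed at -0.02 and Nlrc5 at 0.44. With upper-quartile scaling, 2 members were higher and 1 lower, with B2m at -0.31, H2-D1 at -0.30 and Nlrc5 at 0.40, and the median of all genes moved by 0.056. Without the low-count filter 2 members were higher, Nlrc5 at 0.36. RLE scaling, the 1 CPM filter, DESeq2 and limma-voom changed no member's call. The causes of the other changes were not tested.

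Same-numbered libraries of the groups did not deviate together (correlations across genes of -0.087, -0.202 and -0.059), so no pairing by number was seen. Deviations from the mean of only 3 libraries cannot settle whether the libraries were handled in pairs. With the replicate number as a block, 5743 genes were called in place of 6908 and 1 member lower, with B2m at -0.36 and H2-D1 at -0.34 not called. The block with the length correction gave 2420 genes lower, 16 other listed pathway genes lower and 0 members lower, with B2m at 0.08, H2-K1 at -0.12, H2-D1 at -0.15, Erap1 at -0.10 and Nlrc5 at -0.00502. With all listed heavy chains in the ratio, the log2 difference of B2m to heavy chains was -0.228 in place of 0.03. With 3 libraries a group, the exact tests of ratios cannot go below p = 0.1.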
